A study of Canis lupus familiaris with 8 samples.

Results

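Solute carriers are the membrane proteins that move sugars, amino acids, vitamins, metals, ions and other small molecules into and out of cells and organelles. They were taken here as every gene whose platform annotation gave 1 symbol made of SLC followed by a digit, with the brightest probe set (by mean log2 signal over all arrays) standing for a gene that had several. This gave 188 probe sets and 123 genes of 45 families, among 6540 genes with 1 symbol on the array. Of these 123 genes, 95 were bright enough to be tested. The choice used symbols and mean brightness, not the comparison of the groups.

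RNA came from the anterior mitral valve leaflet of 8 dogs, with 1 Affymetrix array per dog. All 4 controls came from a beagle cross. Degenerative mitral valve disease (DMVD) was present in the 4 affected dogs, of which affected 2 and affected 4 were Miniature poodles, affected 1 was of the Lhasa apso breed and affected 3 of the Dachshund breed. No breed occurred in both groups, so breed and disease cannot be told apart, and the ages and sexes of the dogs, and any treatment they had, were not given in the sources used here. The number of arrays limits the precision of every value below.

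A solute carrier either lets its substrate run down a gradient or couples it to the sodium, proton or ion gradients that ATP-driven pumps maintain. Families are numbered by sequence relatedness, and members of a family often share a substrate. Most members of family 2 carry hexoses, and most of family 25 sit in the inner mitochondrial membrane. Family 35 brings nucleotide sugars into the Golgi and family 39 imports zinc. In a valve leaflet, which has few vessels, interstitial cells take up glucose and sulfate to build matrix, heart muscle at the leaflet's base relies on calcium exchange and mitochondrial ATP export, and macrophages carry their own metal transporters in the phagosome.

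No solute carrier gene passed limma (two-sided, Benjamini-Hochberg adjusted over 14705 probe sets) at an adjusted p of 0.05, and neither did any other probe set. The background share is 0% of 5437 tested genes. The smallest adjusted p of a solute carrier was 0.308. Differences below are log2 signal, affected minus control, with the standard error (SE) from limma and 4 dogs per group, and they are descriptions of these 8 dogs. Of the 95 tested genes 57 (60.0%) had a higher mean in affected dogs, against 49.5% of all 5437 tested genes and 50.5% of all tested probe sets, and their median difference was 0.09 against -0.0055. At an unadjusted p under 0.05 there were 10 higher solute carriers (10.5%), against 4.80% of all tested genes and 4.02% of all tested probe sets, and 1 lower (1.05%), against 3.92% and 3.81%. The groups did not overlap for 3 genes that were higher, against 2.70% of tested genes and 2.35% of tested probe sets, and for 2 that were lower, against 2.37% and 2.31%, so these shares lay near the background. When each array was centred on its median instead, 53.7% of the solute carriers and 42.7% of all genes were higher, and 6 solute carriers, against 3.55% of all genes, were higher at an unadjusted p under 0.05. The 10 higher genes were SLC5A6, SLC28A1, SLC2A6, SLC43A2, SLC25A37, SLC2A3, SLC11A1, SLC2A1, SLC16A13 and SLC2A9, and the lower one was SLC35A1.

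Markers of several cell types differed between the dogs, and their part in the results below was not tested unless a value is given. The valve fibroblast markers, which define the labelled tissue, were all bright enough to be tested (8 of 8 named), with list means (mean log2 signal) from 13.45 to 14.02 in 7 dogs and 11.64 in control 2. Of 17 tested macrophage and monocyte markers, MARCO and FCER1G were bright enough only through the affected dogs, which fixed their direction, and the other 15 were higher in affected dogs. The list means over all 17, with MARCO and FCER1G included, ran from 6.34 to 9.65 in controls and from 9.88 to 11.09 in affected dogs. Part of the gap between these ranges was therefore fixed by the filter. MARCO was at the floor (the lowest value used, a log2 signal of 5.10) in all 4 controls. The cardiac muscle list was lower for 14 of 15 tested members and its mean was 13.90 in control 2 and 10.16 in affected 3, with the other dogs between 11.23 and 13.26. The smooth muscle and myofibroblast list was higher for 7 of 7 tested members, with a median of 0.48. Of these members 0 were at an unadjusted p under 0.05 in limma. The list means overlapped, from 11.51 to 12.96 in controls and from 11.71 to 13.27 in affected dogs. The adipocyte list was lower for 4 of 5, with list means from 7.85 to 10.57 in controls and from 8.20 to 8.56 in affected dogs. Its member ADIPOQ differed by -2.82 ± 1.36. ADIPOQ was at the floor in control 2, from 10.63 to 13.26 in the other controls and from 6.23 to 7.70 in affected dogs. Of the 7 tested endothelial markers 7 were higher, with list means from 9.52 to 9.96 in controls and from 10.41 to 10.66 in affected dogs. In tissue from a whole leaflet, fewer cells of a type and less RNA per cell cannot be told apart.

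**Figure D1:**
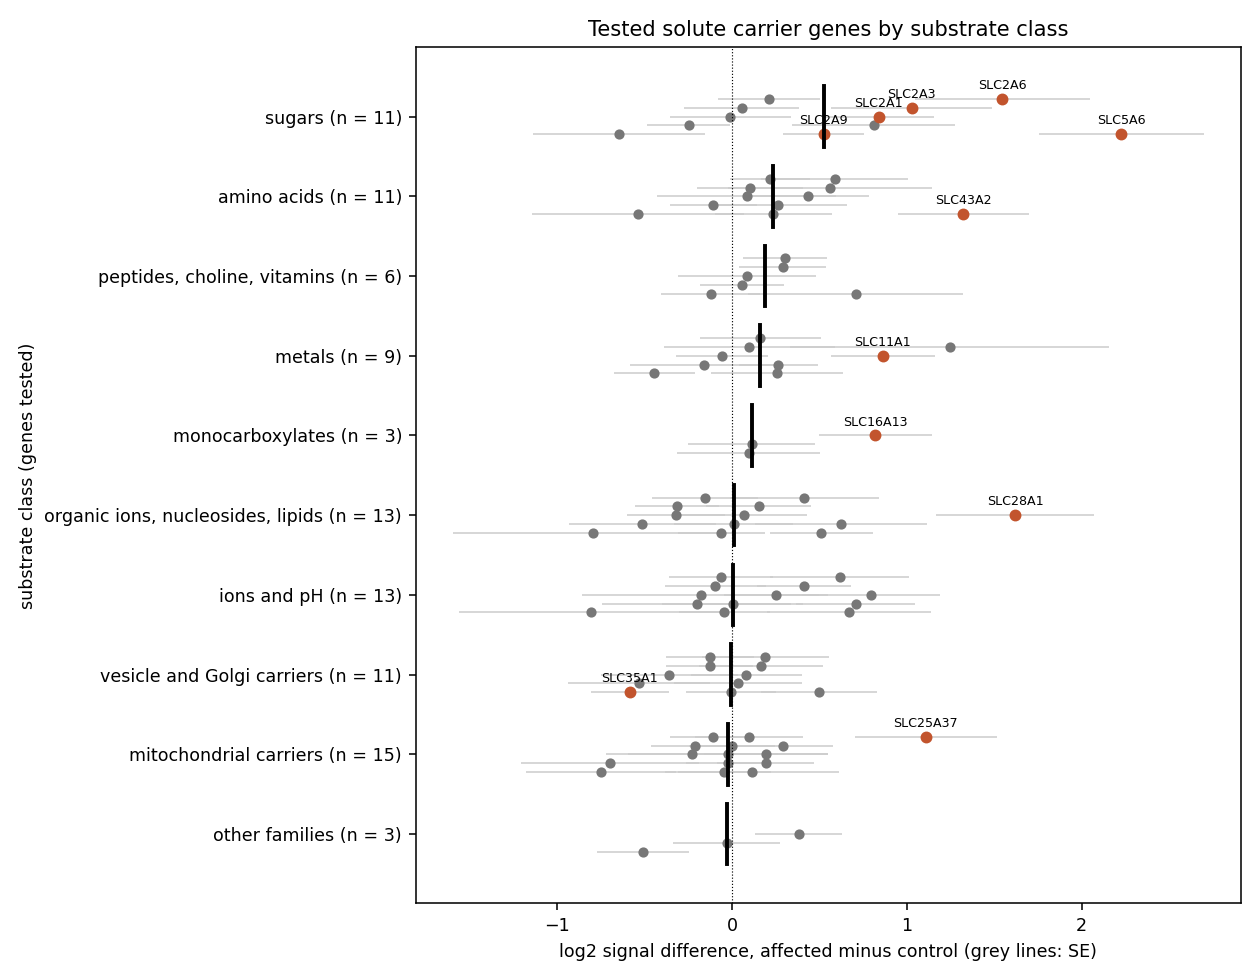
Log2 signal difference (affected minus control, horizontal axis) of the 95 tested solute carrier genes, in rows by substrate class, with SE as grey lines and the class median as a black bar. Orange points are the 11 genes at an unadjusted p under 0.05: 5 of them lie in the sugar row, whose median is 0.52, and the medians of the mitochondrial, vesicle, ion and organic ion rows run from -0.02 to 0.0075.

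The sugar families (2, 5, 37 and 50) had 11 tested genes of 13, of which 8 were higher in affected leaflets, with a median of 0.52. Of these genes 5 were higher at an unadjusted p under 0.05, against 4.80% of all tested genes, and among them SLC5A6 and SLC2A9 have main substrates other than sugar. The class was set by family number, and without these and SLC2A4RG, which is no carrier, 5 of 8 genes were higher, with a median of 0.51 and 3 at an unadjusted p under 0.05. SLC5A6, which belongs to the sodium-coupled family 5 but carries the vitamins biotin and pantothenate and not sugar, had the greatest difference of all solute carriers. Its log2 signals were 8.85, 8.01, 8.66 and 8.78 in controls 1 to 4 and 11.25, 10.09, 9.81 and 12.07 in affected dogs 1 to 4. Every affected dog lay above every control, by at least the gap between 8.85 and 9.81. The difference was 2.23 ± 0.47, a signal 4.68 times as high (95% confidence interval 1.18 to 3.27 on the log2 scale), with an adjusted p of 0.308 in limma. Its other 2 probe sets, which were dimmer, differed by 2.11 ± 0.62 and 1.94 ± 0.57, also with no overlap between the groups. Leaving out single dogs moved the difference between 1.80 and 2.56.

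Of the 6 tested carriers of family 2, 5 were higher, with a median of 0.68. At an unadjusted p under 0.05 in limma 4 were higher, against 4.80% of all tested genes. Both counts include SLC2A9, whose main substrate is not sugar. SLC2A1, the main glucose carrier of many cell types, had log2 signals of 9.46, 8.91, 8.04 and 8.98 in controls and 9.31, 9.76, 10.00 and 9.68 in affected dogs. Only affected 1 lay under the highest control, control 1, and the difference was 0.84 ± 0.32 (limma adjusted p = 0.589). SLC2A3, a glucose carrier of high affinity found in neurons and leukocytes, had values of 10.35, 10.64, 9.51 and 9.13 in controls and 10.10, 10.38, 11.89 and 11.37 in affected dogs, so that affected 3 and affected 4 lay above all controls while affected 1 and affected 2 lay within them. It differed by 1.03 ± 0.46, and its other probe set by 1.18 ± 0.40, with limma adjusted p of 0.636 and 0.547. SLC2A6, a hexose carrier of lysosomes that macrophages make when activated, had values of 6.57, 6.38, 5.10 and 6.86 in controls, with control 3 at the floor, and 7.94, 7.59, 6.78 and 8.78 in affected dogs. Affected 3 lay under control 4 and the other affected dogs lay above all controls, for a difference of 1.55 ± 0.50. SLC2A9, which carries urate, was at 7.71, 7.45, 7.93 and 7.50 in controls and 8.06, 8.24, 8.26 and 8.12 in affected dogs, without overlap. Its difference of 0.52 ± 0.23 was smaller than that of its dimmer probe set, at 1.08 ± 0.47, for which the groups overlapped.

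The remaining sugar genes did not separate the groups. SLC2A8, a hexose carrier inside cells, differed by 0.21 ± 0.29. SLC2A2, the glucose carrier known from liver and pancreatic islets, differed by -0.65 ± 0.49. Affected 4 was at the floor for SLC2A2, and the difference was -0.25 without that dog. SLC2A2 was dim, with 3 controls and 1 affected dog above the brightness limit of the filter, so it was tested mainly through the controls. SLC37A4, which brings glucose 6-phosphate into the endoplasmic reticulum, was at 7.21, 6.12, 6.72 and 6.56 in controls and 8.84, 6.93, 7.23 and 6.86 in affected dogs. The difference of 0.81 ± 0.47 was 0.35 without affected 1, whose value stood above all others. SLC50A1, a sugar carrier of the Golgi and plasma membrane, differed by -0.25 ± 0.24 and SLC5A10 by -0.01 ± 0.35. The symbol rule also took 3 genes that are no carriers: SLC2A4RG, a regulator of a glucose carrier gene, at 0.054 ± 0.33, and the scaffold proteins SLC9A3R1 and SLC9A3R2. Without these 3 the counts at an unadjusted p under 0.05 were still 10 and 1, of 92 tested genes.

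**Figure D2:**
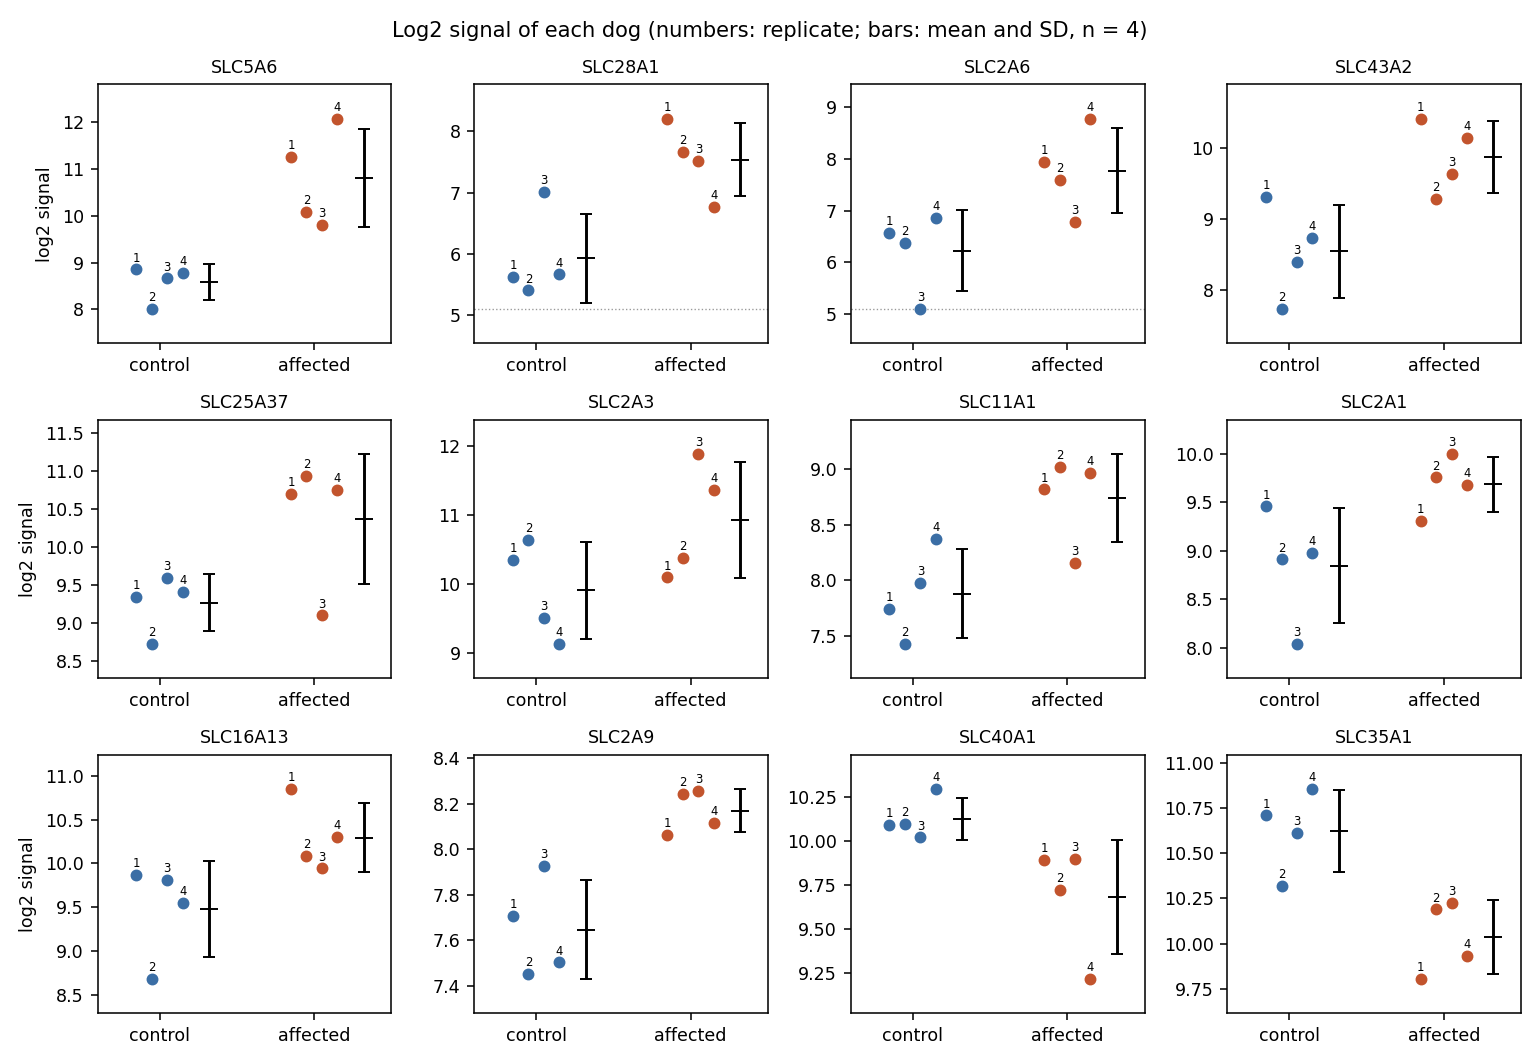
Log2 signal of each dog (numbered points, controls in blue and affected dogs in orange) with the mean and SD (n = 4) for the 11 genes at an unadjusted p under 0.05 and SLC40A1; the dotted line is the floor, and each panel has its own scale. The groups do not overlap for SLC5A6, SLC16A13 and SLC2A9, which lie higher in affected dogs, and for SLC35A1 and SLC40A1, which lie lower, while affected 3 lies among the controls for SLC25A37.

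The glycolysis genes, which use the sugar these carriers bring in, were described from a list of 20. Of 17 tested, 10 were higher and 7 lower, with a median of 0.04 and 1 member at an unadjusted p under 0.05, against 4.80% of all tested genes. ENO1, the enolase of glycolysis, differed by 0.63 ± 0.23 without overlap, from 11.91 to 12.60 in controls and from 12.64 to 13.09 in affected dogs, and PFKFB3, which sets the level of an activator of phosphofructokinase, and PFKP, a phosphofructokinase, differed by 0.80 ± 0.37 and 0.89 ± 0.46. In the other direction PFKM, the muscle phosphofructokinase, differed by -1.05 ± 0.57, and the muscle forms of phosphoglycerate mutase and enolase, PGAM2 and ENO3, by -1.41 ± 1.18 and -0.57 ± 0.79.

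Family 16 carries lactate, pyruvate and other monocarboxylates, and 3 of its 3 named genes were tested and higher. SLC16A13 had log2 signals of 9.87, 8.68, 9.81 and 9.55 in controls and 10.85, 10.09, 9.94 and 10.30 in affected dogs. Every affected dog lay above every control, although affected 3 and control 1 were close, and control 2 was lowest. The difference was 0.82 ± 0.32 (limma adjusted p = 0.604), and 0.55 without control 2. SLC16A4 and SLC16A14 differed by 0.11 ± 0.36 and 0.094 ± 0.41, less than their errors. EMB, which escorts monocarboxylate carriers to the cell surface, differed by 1.43 ± 0.69 with overlap, and BSG, the other such escort tested, by -0.14 ± 0.40. CA14, a carbonic anhydrase, differed by -1.04 ± 0.73.

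Amino acid carriers had 11 tested genes of 19, of which 9 were higher, with a median of 0.24 and 1 at an unadjusted p under 0.05, against 4.80% of all tested genes. SLC43A2, a carrier of branched-chain and other neutral amino acids, was at 9.30, 7.74, 8.39 and 8.74 in controls and 10.41, 9.28, 9.63 and 10.14 in affected dogs. The overlap came down to affected 2 lying just under control 1. The difference was 1.32 ± 0.37, with a limma adjusted p of 0.452, and over single left-out dogs it ranged from 1.05 to 1.58. The other gene of that family, SLC43A3, a carrier of purine bases, differed by -0.11 ± 0.25. The 4 tested genes of family 1, which take up glutamate or small neutral amino acids with sodium, were all higher, with a median of 0.50. SLC1A2 differed by 0.59 ± 0.42 (from 0.26 to 0.84 over single left-out dogs), SLC1A1 by 0.56 ± 0.58 and SLC1A4 by 0.44 ± 0.35. SLC1A2 was dim, with 1 control and 4 affected dogs above the brightness limit of the filter, so it was tested mainly through the affected dogs. SLC1A3, a glutamate carrier best known from astrocytes, differed by 0.082 ± 0.51, and ranged from -0.35 to 0.33 over single left-out dogs, so its direction was not settled. Control 2 was the lowest dog for SLC1A1, SLC1A3 and SLC1A4. For SLC1A1 control 2 was at 6.46 against 8.89 to 9.54 in the other controls, and affected dogs lay at 9.01, 8.72, 9.52 and 9.07. For SLC1A4 control 2 was at 7.49, the other controls at 8.47, 9.19 and 8.19, and affected dogs from 8.52 to 8.97. No affected dog lay above control 3 for either gene. The higher mean of SLC1A1 thus rested on control 2, and that of SLC1A4 rested on it in part. SLC1A3 was at -0.35 without control 2.

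SLC38A2, a glutamine and alanine carrier that cells induce when amino acids run short, differed by 0.22 ± 0.23, and its other 3 probe sets by 0.34 to 0.51, all higher. SLC38A1, a related glutamine carrier, differed by -0.54 ± 0.61, with control 2 the highest dog at 8.97, and by 0.0019 without that dog. SLC38A3 differed by 0.24 ± 0.33. SLC6A6, the taurine carrier, differed by 0.26 ± 0.40, with values of 9.48, 11.12, 9.65 and 10.00 in controls and 10.50, 10.19, 10.95 and 9.65 in affected dogs that lay within the range of the controls. SLC3A1, the partner chain of a cystine carrier, differed by 0.10 ± 0.30. In a list of the response to amino acid shortage 5 of 7 tested genes were higher, with a median of 0.22 and 0 at an unadjusted p under 0.05 in limma. ASNS, asparagine synthetase, differed by 0.76 ± 0.43, the transcription factor ATF4 by 0.33 ± 0.24 and XBP1, a factor of the unfolded protein response, by 0.35 ± 0.31.

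Metal carriers had 9 tested genes of 11, of which 6 were higher, with a median of 0.16. SLC11A1, which pumps iron and manganese out of the phagosome of macrophages, had log2 signals of 7.74, 7.43, 7.98 and 8.37 in controls and 8.82, 9.02, 8.16 and 8.97 in affected dogs. Affected 3 was the only affected dog under the highest control. The difference was 0.86 ± 0.30 (limma adjusted p = 0.549), and over single left-out dogs it ranged from 0.71 to 1.06. Control 2 was the lowest dog both for SLC11A1 and for the macrophage list, but control 1, with the highest macrophage list mean of the controls, was not their highest for SLC11A1. The part of the macrophage markers in the SLC11A1 and SLC2A6 differences was not tested.

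SLC40A1, the iron exporter of cells, was lower in the affected dogs. Its values were 10.09, 10.10, 10.02 and 10.30 in controls and 9.89, 9.72, 9.90 and 9.21 in affected dogs, so all affected dogs lay under all controls. The difference was -0.44 ± 0.23, and -0.29 without affected 4, the lowest dog. Its dimmer probe set differed by -1.13 ± 0.53 with overlap, and the limma adjusted p of the brighter one was 0.666. SLC25A37, which imports iron into mitochondria for heme synthesis, was at 9.34, 8.72, 9.59 and 9.41 in controls and 10.70, 10.94, 9.10 and 10.76 in affected dogs. Affected 1, 2 and 4 lay above every control and affected 3 lay below 3 of the controls, for a difference of 1.11 ± 0.41. Without affected 3 it was 1.53. Among iron and zinc handling genes 6 of 8 tested were higher, with a median of 0.73, 3 higher at an unadjusted p under 0.05 (background 4.80%) and 1, the ferritin receptor gene NCOA4 at -0.66 ± 0.29, lower (background 3.92%). The metallothioneins MT2A and MT1E, which bind zinc and copper, differed by 1.78 ± 0.65 and 1.60 ± 0.67, and HAMP, the gene of hepcidin, the peptide that removes the SLC40A1 protein from the cell surface, by 1.33 ± 0.52 with control 2 and control 3 at the floor. HAMP was dim, with 1 control and 3 affected dogs above the brightness limit of the filter, so it was tested mainly through the affected dogs. Control 2 was lowest for MT2A and MT1E, at 10.35 and 8.58.

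The zinc importers of family 39 differed little. Of 5 tested genes 4 were higher, in a range from -0.16 to 0.26. SLC39A13, a zinc carrier of the Golgi that connective tissue needs, differed by 0.26 ± 0.23, SLC39A12 by 0.26 ± 0.38, SLC39A8, which also carries manganese, by 0.16 ± 0.34, SLC39A10 by 0.098 ± 0.49 and SLC39A6 by -0.16 ± 0.43. Of the magnesium carriers, SLC41A3 differed by -0.058 ± 0.26 and SLC41A2 by 1.24 ± 0.91. SLC41A2 was at the floor in control 2 and between 9.12 and 10.16 in the other 7 dogs, and without control 2 the difference was 0.10.

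Carriers of nucleosides, organic ions, fatty acids and acetyl-CoA had 13 tested genes of 17, of which 7 were higher, with a median of 0.0075. SLC28A1, a sodium-coupled carrier of pyrimidine nucleosides known from gut and kidney, was dim in these leaflets, with 1 control and 4 affected dogs above the brightness limit of the filter, at 5.62, 5.40, 7.01 and 5.66 in controls and 8.21, 7.67, 7.52 and 6.76 in affected dogs. Affected 4 lay under control 3, and all other affected dogs lay above all controls. The difference of 1.62 ± 0.45 (limma adjusted p = 0.442) was 0.81 with a floor at the 40th percentile in place of the 20th, and 3 controls lay close to the floor. SLC29A1, which lets nucleosides including adenosine cross the membrane in either direction, differed by -0.32 ± 0.24, from 10.80, 10.56, 11.24 and 10.98 in controls to 10.30, 10.44, 10.70 and 10.88 in affected dogs. It was -0.20 without control 3. SLC33A1, which brings acetyl-CoA into the endoplasmic reticulum, differed by 0.51 ± 0.30, by 0.33 without affected 4 and by 0.33 without control 2.

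Of the 8 tested organic ion carriers of family 22, 3 were higher and 5 lower, in a range from -0.80 to 0.62, and 0 of them were at an unadjusted p under 0.05 in limma. SLC22A3, which carries monoamines and organic cations and is known from the heart, was at 10.43, 13.44, 10.73 and 11.30 in controls and 10.71, 12.30, 8.66 and 11.04 in affected dogs. Control 2 was the highest dog and affected 3 the lowest. The difference was -0.80 ± 0.80, and it was -0.12 without affected 3 and -0.14 without control 2. SLC22A17, an endocytic receptor for lipocalin, differed by -0.32 ± 0.28, SLC22A6, known from the kidney tubule, by -0.51 ± 0.42, and SLC22A16, a carnitine carrier, by 0.62 ± 0.49. Over single left-out dogs SLC22A16 ranged from 0.34 to 1.00, SLC22A17 from -0.53 to -0.16 and SLC22A6 from -0.88 to -0.26.

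Family 25, most of whose members are mitochondrial carriers, was the largest family, with 15 tested genes of 17. Of all 15, with SLC25A37 included, 6 were higher and the median was -0.02. Besides SLC25A37, the differences ran from -0.75 to 0.29. The ADP/ATP carriers exchange the ATP made in mitochondria for ADP. SLC25A4, the form of heart and skeletal muscle, was at 12.57, 14.36, 11.95 and 12.84 in controls and 11.95, 13.03, 11.42 and 12.52 in affected dogs, with control 2 highest and affected 3 lowest. The difference was -0.70 ± 0.51, -0.22 without control 2 and -0.43 without affected 3. SLC25A5 and SLC25A6, the forms of other tissues, differed by 0.19 ± 0.35 and 0.19 ± 0.28. SLC25A5 was at -0.083 without affected 4, and the probe sets of both genes lay on both sides of 0. SLC25A11, which exchanges 2-oxoglutarate for malate, differed by -0.024 ± 0.57, and SLC25A12, the aspartate and glutamate carrier of muscle and brain, by 0.093 ± 0.31. Over single left-out dogs SLC25A11 ranged from -0.39 to 0.56 and SLC25A12 from -0.065 to 0.32, so neither had a settled direction. SLC25A40 had the greatest negative difference of the family, -0.75 ± 0.43, and was at -0.42 without affected 1. It was dim, with 3 controls and 1 affected dog above the brightness limit of the filter, so it was tested mainly through the controls.

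The families of ion and of acid and base carriers had 13 tested genes of 18, of which 7 were higher, with a median of 0.0029 and 0 at an unadjusted p under 0.05 in limma in either direction. Without the scaffolds SLC9A3R1 and SLC9A3R2 5 of 11 were higher and the median was -0.045. SLC8A1, the sodium-calcium exchanger that clears calcium from heart muscle cells, was at 7.47, 9.83, 6.98 and 8.94 in controls and 6.55, 9.20, 6.22 and 8.02 in affected dogs. Control 2 was the highest dog and affected 3 the lowest, as for SLC25A4 and SLC22A3. The difference of -0.81 ± 0.76 was -0.30 without control 2 and reached -1.37 without affected 2. SLC20A1, a sodium-phosphate carrier that supplies phosphate to calcifying cells, was at 11.96, 9.80, 11.09 and 11.16 in controls and 11.89, 11.71, 11.66 and 11.93 in affected dogs. Control 2 stood below the other dogs, and the difference of 0.79 ± 0.39 was 0.39 without it. The anion exchanger SLC4A2 differed by 0.41 ± 0.27 and the sodium-bicarbonate carrier SLC4A4 by 0.25 ± 0.30, while a dimmer probe set of SLC4A4 was at -0.40 ± 0.33. The sodium-proton exchanger of endosomes SLC9A9 differed by 0.61 ± 0.40, by 0.31 without control 2 and by 0.40 without affected 2. SLC9A8, of the Golgi, differed by -0.20 ± 0.54, with affected 1 at the floor. Without affected 1 SLC9A8 was at 0.23.

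The scaffold SLC9A3R1, which tethers sodium-proton exchangers and other membrane proteins, differed by 0.71 ± 0.34 and by 0.41 without control 2. SLC9A3R2 differed by 0.67 ± 0.47, with affected 1 at 12.51 and the other affected dogs between 10.21 and 10.91. The sodium and calcium pumps that maintain the gradients had 6 of 10 tested genes higher, with a median of 0.24 and 0 at an unadjusted p under 0.05 in limma. ATP1B3, a chain of the sodium pump, differed by 0.65 ± 0.38, its regulator FXYD2 by 0.99 ± 0.64 and the calcium pump ATP2B1 by 0.56 ± 0.37. On the lower side the sodium pump chain ATP1B1 differed by -0.44 ± 0.46 and ATP2C1, a calcium pump of the Golgi, by -0.63 ± 0.55.

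The vesicle and Golgi carriers of families 17, 18 and 35 had 11 tested genes of 12, of which 5 were higher, with a median of -0.0080. SLC35A1, which brings CMP-sialic acid into the Golgi for the sialylation of glycoproteins, was at 10.71, 10.32, 10.61 and 10.85 in controls and 9.80, 10.19, 10.22 and 9.93 in affected dogs. Every affected dog lay under every control. The difference was -0.59 ± 0.22 (limma adjusted p = 0.595), it ranged from -0.69 to -0.51 over single left-out dogs, and the dimmer probe set differed by -0.76 ± 0.35 with overlap. The UDP-galactose carrier SLC35A2 differed by -0.008 ± 0.26 and the UDP-N-acetylglucosamine carrier SLC35A3 by 0.49 ± 0.33, and by 0.26 without affected 4. The 8 genes of family 35 were 4 higher and 4 lower. SLC35F1 differed by -0.36 ± 0.39 and by -0.01 without affected 1. SLC18B1, a vesicular polyamine carrier, differed by -0.53 ± 0.41 and by -0.19 without affected 4, and SLC18A2, the vesicular monoamine carrier, by -0.13 ± 0.25.

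Carriers of peptides, choline and vitamins had 6 tested genes of 9, of which 5 were higher, with a median of 0.19 and 0 at an unadjusted p under 0.05 in limma. The peptide carrier SLC15A2 differed by 0.29 ± 0.25 and SLC15A4, which exports peptides and histidine from endosomes and lysosomes of immune cells, by -0.12 ± 0.28. The riboflavin carrier SLC52A2 differed by 0.30 ± 0.24, the choline carrier SLC44A1 by 0.084 ± 0.39 and the vitamin C carrier SLC23A2 by 0.057 ± 0.24. SLC46A2 was at the floor in control 2 alone, and its difference of 0.71 ± 0.61 was 0.034 without that dog. Outside these classes, SLC49A4 differed by -0.51 ± 0.26, SLC66A3 by 0.38 ± 0.25 and SLC66A2 by -0.031 ± 0.31.

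Where a gene had several probe sets, they served as a check on single values. There were 25 genes with 2 or more tested probe sets. In 16 of these all tested probe sets lay on the same side of 0, and in 9 they lay on both sides. SLC5A6, SLC2A3, SLC2A9, SLC38A2, SLC35A1 and SLC40A1 were among the 16. The 4 tested probe sets of SLC23A2 ran from -0.60 to 0.37, and those of SLC4A2 from -0.14 to 0.55.

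**Figure D3:**
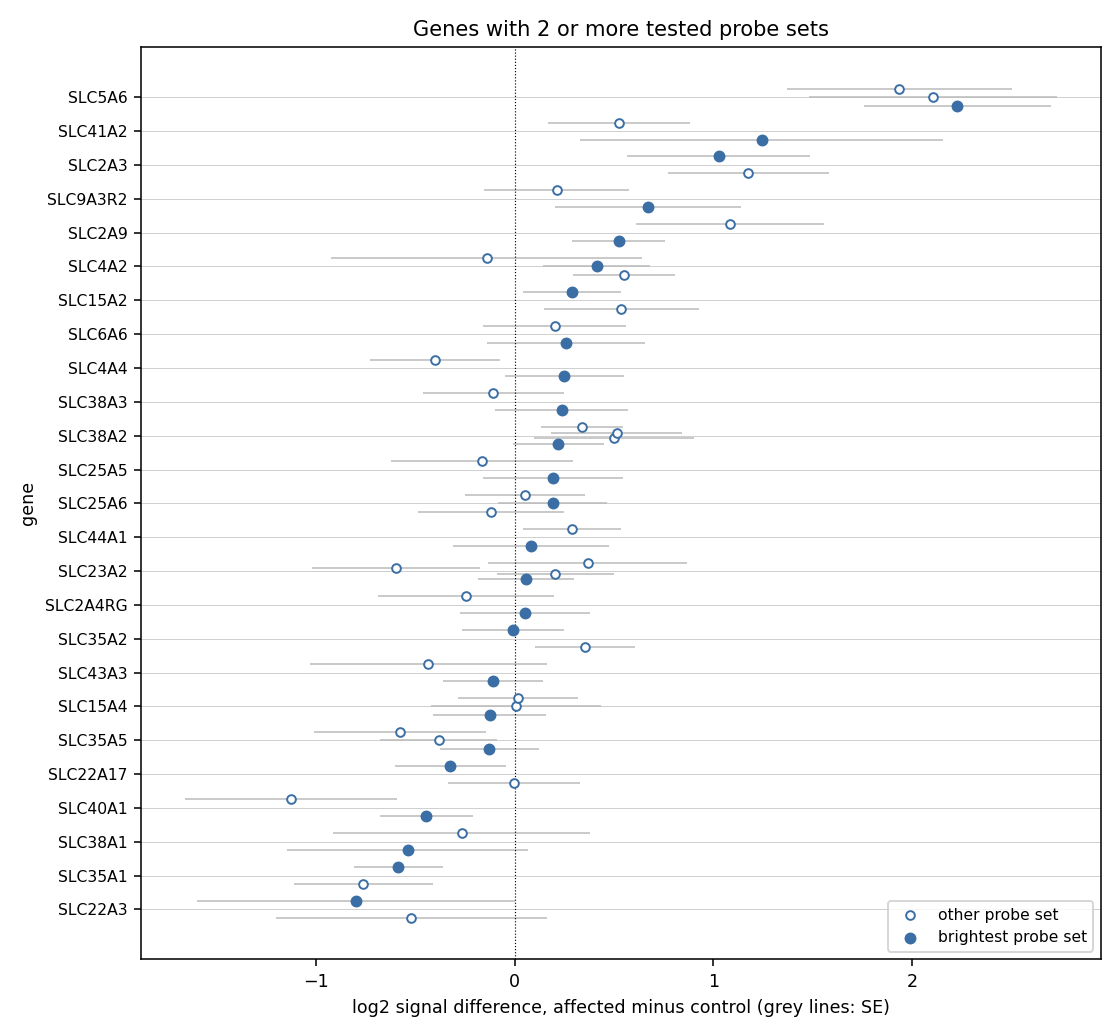
Log2 signal difference (affected minus control, horizontal axis, SE as grey lines) of every tested probe set for the 25 genes with 2 or more, with the brightest probe set filled. The 3 probe sets of SLC5A6 lie between 1.94 and 2.23, and those of 9 genes, SLC23A2 among them, lie on both sides of 0.

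Several carriers varied more between dogs than between groups, and their values were set against the mean of the cardiac muscle list over the 8 dogs. This relation was chosen after the values were seen. Over 5437 tested genes no correlation passed an exact permutation test (two-sided, Benjamini-Hochberg adjusted) at 0.05, so none of the 95 carriers did, against a background of 0%. At an unadjusted exact p under 0.05 there were 15 carriers (15.8%), against 14.1% of all tested genes, a share near the background. These carriers lay in both directions. Negative ones included SLC39A10 at an r of -0.89, SLC52A2 at -0.79 and SLC25A17 at -0.78. Positive ones included SLC12A8 at an r of 0.92 with a rho of 0.95, SLC25A11 at 0.89, SLC25A33 at 0.88 and SLC66A2 at 0.85. SLC22A3 had the highest r, 0.95 (exact permutation p = 0.00109, adjusted p = 0.135), with a rho of 0.81 (exact permutation p = 0.0218, adjusted p = 0.326). Without control 2 and affected 3, the dogs farthest from the median of the list, its r was 0.80. For SLC25A4 r was 0.90 (exact permutation p = 0.00300, adjusted p = 0.170) with a rho of 0.93 (exact permutation p = 0.00223, adjusted p = 0.148), and r was 0.77 without those dogs. For SLC8A1 r was 0.88 (exact permutation p = 0.00298, adjusted p = 0.170) with a rho of 0.83 (exact permutation p = 0.0154, adjusted p = 0.275), and r was 0.74 without those dogs. With the list mean as a covariate in limma, the differences of SLC25A4, SLC8A1 and SLC22A3 were -0.35, -0.30 and -0.20. All had a high r with that same list, whose mean was 12.46 in controls and 11.93 in affected dogs. Smaller differences with the covariate were therefore fixed in advance. The part of heart muscle content in any of these differences was not tested.

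**Figure D4:**
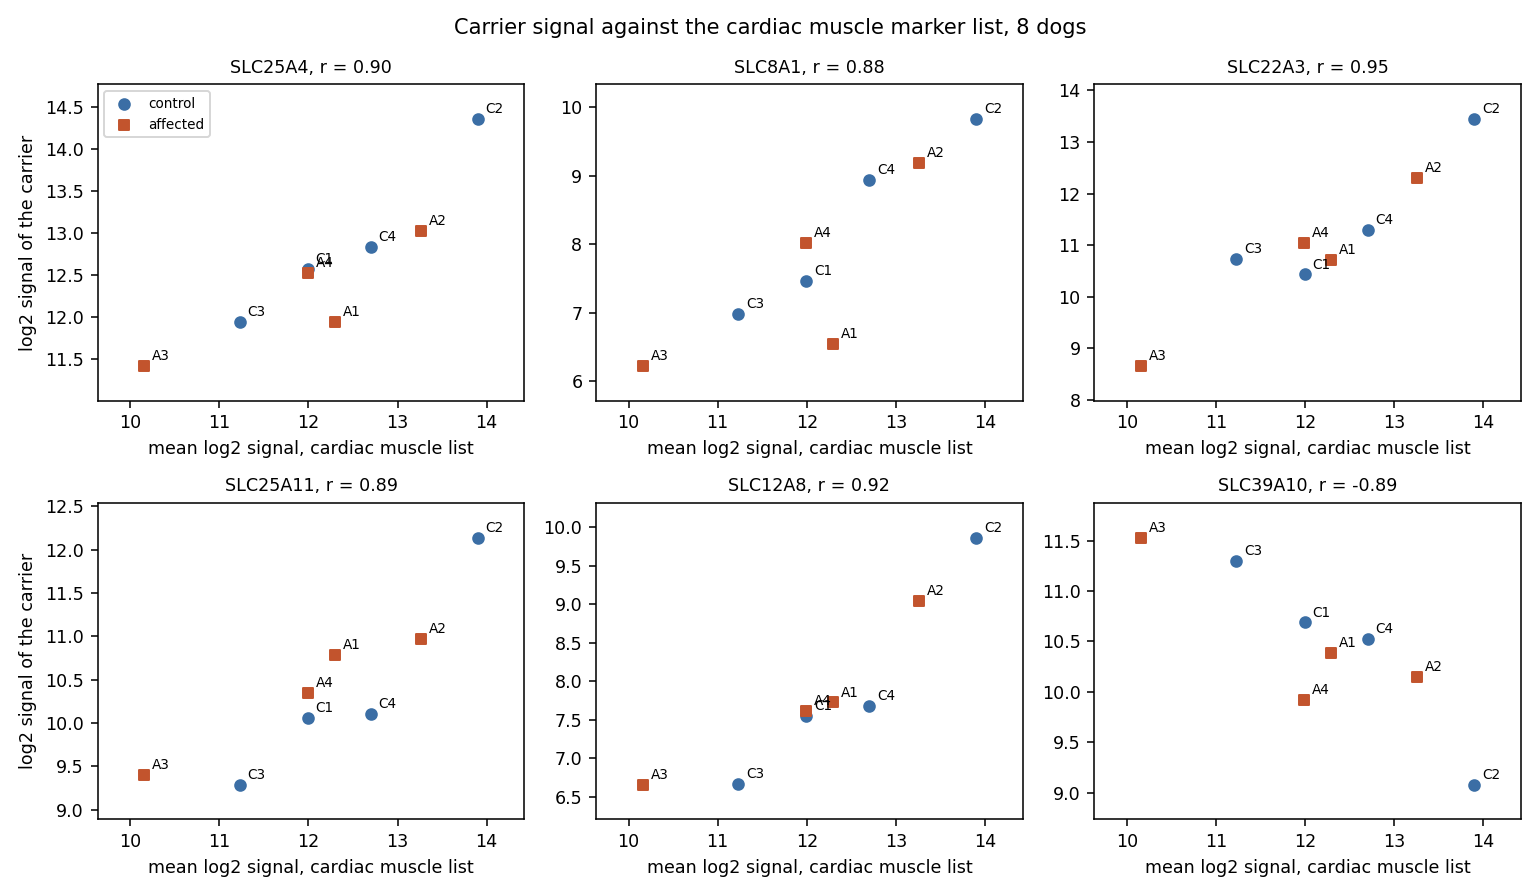
Log2 signal of 6 carriers (vertical axes, each with its own scale) against the cardiac muscle list mean (log2 signal, horizontal axis) in 4 controls (C, circles) and 4 affected dogs (A, squares), chosen after the values were seen. Control 2 (C2) is at 13.90 and affected 3 (A3) at 10.16 on the horizontal axis, and r runs from 0.88 to 0.95 for 5 of the carriers and is -0.89 for SLC39A10.

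Control 2 was the lowest of the 8 dogs for 31 of the 95 genes (32.6%), where it was lowest for 24.0% of all tested genes, and the highest for 17 (17.9%), against 21.6% of all tested genes. Without control 2, 8 carriers were higher and 2 lower at an unadjusted p under 0.05, against 4.27% and 4.67% of all tested genes. Over all 8 choices of a left-out dog the number of higher carriers ranged from 7 to 11.

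Other transporter families gave a comparison within the same arrays. Of 14 tested ABC transporters, which pump lipids and drugs with ATP, 7 were higher and 7 lower, with a median of 0.03 and 0 at an unadjusted p under 0.05 in limma. ABCC11 differed by 0.77 ± 0.41, ABCA5 by -0.47 ± 0.28 and ABCA6 by -0.49 ± 0.31. The organic anion carriers with SLCO symbols had 1 tested gene of 3, SLCO5A1, at -0.20 ± 0.53.

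The 28 solute carrier genes that were not tested lay at a log2 signal of at most 7.39 on every array, and 5 of them, SLC15A1, SLC1A6, SLC47A2, SLC7A1 and SLC9A2, were at the floor on all 8 arrays. Of the untested genes 8 were carriers of amino acids, 5 of ions and 4 of organic ions. Of 50 carriers listed for their role, 22 were named by the annotation and 20 tested, so 28, among them SLC16A1, SLC16A3, SLC7A5, SLC3A2 and the sulfate carrier SLC26A2, were not analysed here.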

How the data were processed

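Total RNA from frozen anterior mitral leaflets was labelled and hybridised to Affymetrix arrays, per the labels' protocols. The authors deposited a linear intensity for each probe set, and the submitters' processing notes name MAS5, with no version in the sources used here. Arrays were scaled to a trimmed mean (2% from each end), set to a floor at the 20th percentile (34.2) and log2 transformed. Testing required a signal above the array's own 40th percentile on 4 or more of the 8 arrays. Groups were compared with limma 3.58.1 in R 4.3.3 (lmFit, eBayes with intensity trend, Benjamini-Hochberg over 14705 probe sets, threshold 0.05), tested on simulated data. The labels call the samples biological replicates and each is taken as 1 dog, with no animal identifiers given.

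Of 23913 rows 10549 had 1 gene symbol, 138 several and 13226 none; probe sets without 1 symbol were not used as members. Of the 188 solute carrier probe sets 183 matched the RefSeq table and no symbol changed. The genes and lists were chosen with earlier results of these data known. Genes were named by rule: per direction the 15 with the smallest p, all without overlap, and 50 fixed by role; other members were named to fill in a class, after their values were seen. Normalization, floor, filter, eBayes options, array weights, the replicate block, a cardiac covariate, the probe set of a gene and single left-out dogs were varied.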

Additional observations from a re-analysis of the deposited data

Results flagged for a closer look

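For 5 of the 96 groups of 4 dogs examined, 1 dog stood far from the other 3, where chance gives about 1 in 20. The share flagged thus lay near the chance rate. SLC18B1 was at 8.72 in affected 4, against 10.04 to 10.23 in the other affected dogs. SLC1A2 was at 7.67 in affected 2, against 6.77 to 6.82. SLC25A37 was at 9.10 in affected 3, against 10.70 to 10.94. SLC28A1 was at 7.01 in control 3, against 5.40 to 5.66 in the other controls. SLC41A2 was at the floor, 5.10, in control 2, against 9.40 to 9.82.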

How the results depend on the processing

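No solute carrier passed the adjusted threshold under any alternative run, and the lowest adjusted p of a named gene in any of them was 0.0672 (SLC5A6, limma with the replicate block). The 10 higher carriers at an unadjusted p under 0.05 became 6 with median centring (all genes 3.55%) and 7 to 11 over single left-out dogs (all genes 2.98% to 6.79%). The 1 lower carrier became 2 with array weights (all genes 7.21%), 2 with the mean over probe sets (3.88%), 3 with no filter (4.01%) and 0 to 2 over left-out dogs (1.97% to 5.61%). The 3 carriers higher without overlap became 4 to 10 over left-out dogs, where fewer dogs are compared (all genes 3.27% to 7.28%). The 2 lower without overlap became 0 with median centring (all genes 1.97%), 0 with the mean over probe sets (2.28%) and 2 to 5 over left-out dogs (3.05% to 6.05%). The median was 0.067 to 0.158 over left-out dogs. Of 48 named genes 38 kept their direction in every setting in which they were tested; 16 of the gene and setting pairs could not be compared, since the gene was not tested there. SLC25A11 turned to 0.052 with quantile normalization, 0.33 with array weights and 0.37 with the cardiac covariate, and ran from -0.39 to 0.56 over left-out dogs. SLC9A8 turned to 0.26 with the floor at the 40th percentile and ran from -0.68 to 0.23. SLC1A3 turned to -0.13 with array weights and -0.14 with the cardiac covariate and ran from -0.35 to 0.33. SLC4A4 was at -0.075 with the mean over probe sets. Over left-out dogs SLC15A4 ran from -0.35 to 0.035, SLC38A1 from -0.98 to 0.0019, SLC25A12 from -0.065 to 0.32, SLC39A6 from -0.46 to 0.10, SLC25A5 from -0.083 to 0.42 and SLC39A8 from -0.054 to 0.40. The cause was not tested. Values near the floor bound what SLC28A1, SLC2A6 and SLC2A2 can show.

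The labels do not say whether the shared replicate numbers pair the dogs, and the main comparison was unpaired. The 4 correlations of deviations were -0.12, 0.41, 0.02 and -0.01, and 2 of 8 dogs correlated best with their own number. So few values cannot decide whether the dogs were paired. With the replicate block, 2 carriers were lower at an unadjusted p under 0.05, against 5.02% of all genes, and 4 of all probe sets passed the adjusted threshold in limma, against 0 without it and 0 to 1 over single left-out dogs.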

Other observations

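Among the carriers too dim to test, SLC5A3, which takes up inositol, had floor values in the 4 controls and affected 3 and lay at 5.54, 6.60 and 6.78 in affected 1, 2 and 4. SLC30A2, a zinc exporter, had floor values in the 4 controls and affected 1 and lay at 5.56, 5.42 and 6.44 in affected 2, 3 and 4. Other untested carriers had lower means in affected dogs, among them SLC25A32 (6.39 in controls and 5.77 in affected dogs) and SLC6A12 (6.60 and 6.17). These genes were chosen after their values were seen and have no test.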
